A study of Mus musculus with 6 samples.

Results

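The YAP and TAZ pathway is represented here by 10 genes. They are the kinase genes Lats1 and Lats2, the coactivator genes Yap1 and Wwtr1 (which encodes TAZ), the DNA-binding factor genes Tead1 and Tead2, the scaffold genes Amotl2 and Ajuba, and the target genes Ccn1 and Ccn2 (older names Cyr61 and Ctgf). They were taken by gene symbol, and all 10 have a row among the 22933 genes of the deposited table. The study sequenced total RNA of mouse embryonic stem cells of the strain Ezh2 fl/fl. The tamoxifen libraries (n = 3) are labelled Ezh2 KO and the untreated libraries (n = 3) Ezh2 wild type. Tamoxifen cells received 800 nM 4-hydroxytamoxifen for 96 h, and their RNA was taken 4 days after treatment. The treatment protocol states that tamoxifen generates the deleted (delta/delta) Ezh2 genotype, while untreated cells are fl/fl. Cells of both groups grew on gelatin, in medium with serum, serum replacement and leukaemia inhibitory factor. The source of the Cre recombinase is not given in the sources used here, and untreated cells did not receive the drug, so Ezh2 loss and exposure to the drug cannot be told apart. Nothing states that the replicates were separate cultures, so the p-values measure the spread between these libraries, which may be technical.

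YAP1 and TAZ are coactivators that have no DNA-binding domain of their own and reach DNA mainly through the TEAD factors. The LATS kinases of the Hippo pathway phosphorylate both, which holds them in the cytoplasm and leads to their degradation. In the early mouse embryo, nuclear YAP1 with TEAD4 turns on trophectoderm genes in outer cells, while LATS activity keeps it out of the nucleus in inner cells.

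None of the 10 genes passed the test between tamoxifen and untreated libraries. The highest fold change was that of Ccn1, a matricellular protein gene and a classic YAP target, with 6090 ± 295 in tamoxifen and 3454 ± 354 in untreated libraries (mean normalized value ± SD, n = 3 each). Its log2 fold change was 0.82 (SE 0.13), and its adjusted p of 0.0776 from limma missed the threshold of 0.05. Ccn2, Amotl2, Wwtr1 and Yap1 also lay higher in every tamoxifen library than in any untreated library, at log2 fold changes between 0.25 and 0.54. The kinase genes Lats1 and Lats2 and the factor gene Tead2 had log2 fold changes below 0, and their groups overlapped.

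Library depth and the RNA of the targeted gene limit how these values can be read. The deposited values are normalized and are not reads, but whole reads could be recovered from them, with 2334438 to 5110226 reads in tamoxifen and 2678202 to 5689666 in untreated libraries. Depth scaled by the median of ratios was lowest in untreated replicate 3, at 1821139. It was next lowest in tamoxifen replicate 2, at 2995507. Ezh2 itself had normalized values of 2258, 2559 and 2609 in tamoxifen libraries, against 4165, 3620 and 3483 in untreated libraries. The groups did not overlap, but the log2 fold change of Ezh2 was -0.60 (SE 0.13) with an adjusted p of 0.157 in limma. Ezh2 RNA was thus still present after tamoxifen, and its change did not pass the test. On recovered reads the log2 fold change of Ezh2 was -0.40 (limma adjusted p 0.638). The values are per gene and do not separate deleted from remaining exons, so they cannot show how complete the deletion was.

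The test was limma on log2(normalized value + 1), over the 11843 genes with at least 10 recovered reads on average, with Benjamini-Hochberg adjustment over all of them. A fold change is tamoxifen minus untreated on that scale, and the added 1 slightly understates changes of low genes. Of the 11843 genes, 15 were called at an adjusted p under 0.05, which is 0.127%, 13 of them higher and 2 lower. Of the 10 pathway genes, 0 were called. At an unadjusted limma p under 0.05 stood 12% of all tested genes and 3 of the 10, namely Ccn1, Ccn2 and Amotl2, each with a fold change above 0. Groups did not overlap with tamoxifen higher in 9.49% of all tested genes and in 5 of the 10. Groups did not overlap with tamoxifen lower in 8.89% of all tested genes and in 0 of the 10. The median log2 fold change was 0.29 over the 10 genes (range -0.26 to 0.82) and -0.01 over all tested genes. An exact permutation test of 3 against 3 libraries cannot give a p under 0.1, and 0.1 was reached by Yap1, Wwtr1, Amotl2, Ccn1 and Ccn2. This permutation p is 0.1 wherever the groups do not overlap, so for these 5 genes it only restates that separation.

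**Figure D1:**
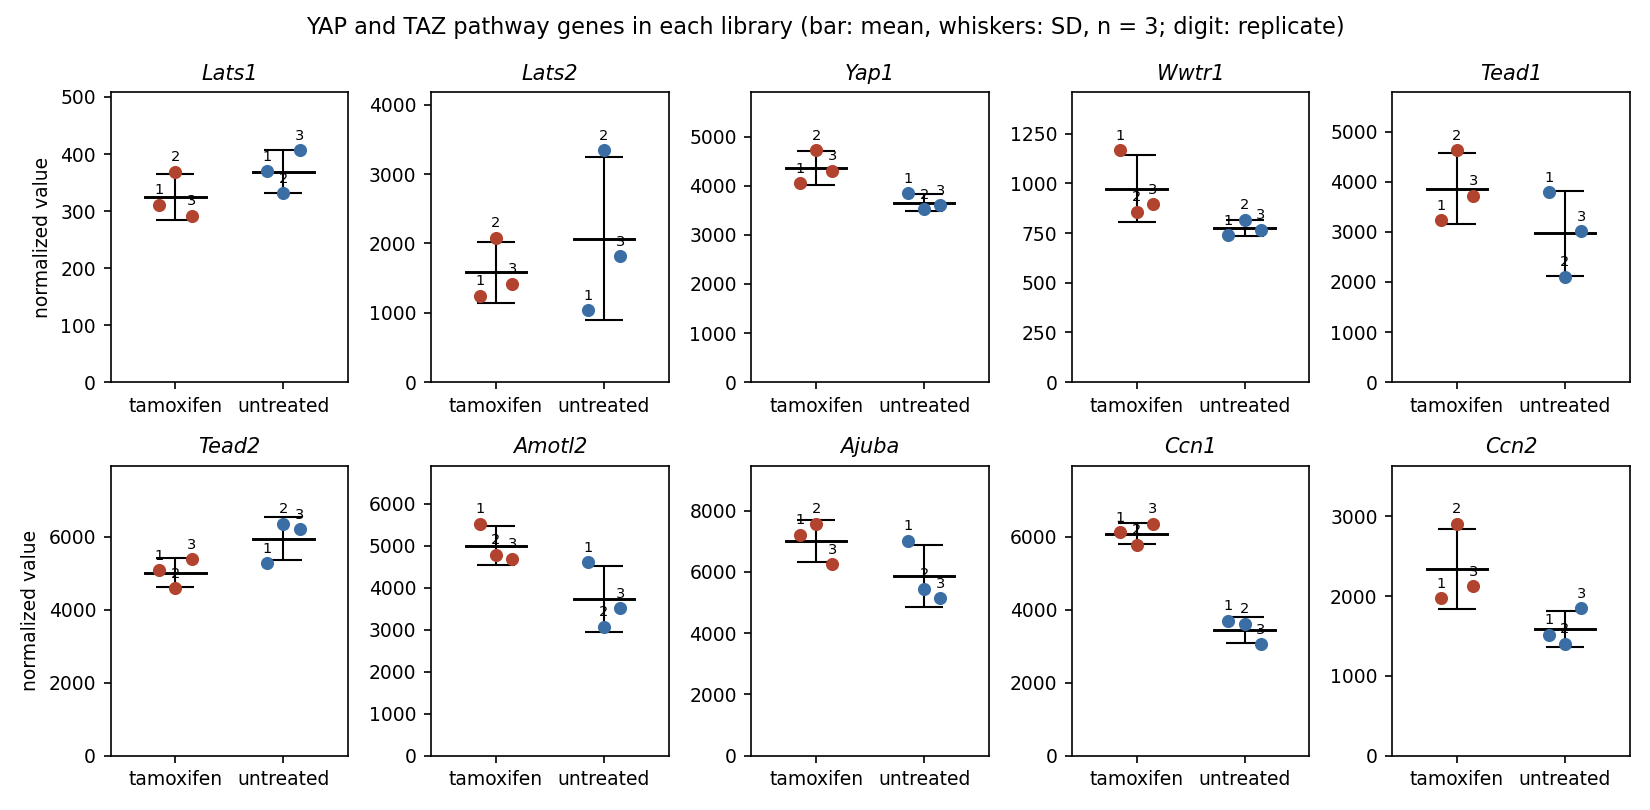
Normalized value (vertical axis, from 0) of each of the 10 genes in the 3 tamoxifen libraries (red) and the 3 untreated libraries (blue). Bars are means, whiskers are SD, and digits give the replicate. The 3 tamoxifen points of Ccn1 (5778 to 6364) lie above the 3 untreated points (3048 to 3696), while the points of Lats1, Lats2, Tead1, Tead2 and Ajuba overlap between groups.

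The promoters are shown because TEAD factors bind a known short motif, GGAATG, and because Ccn1, Ajuba, Wwtr1 and Yap1 carry it within the 250 bases before their RefSeq gene start. Sequences are from RefSeq on GRCm38.p6, read on the strand of the gene from 5′ to 3′, and capitals mark the motif, which reads CATTCC where it lies on the opposite strand. Of the 10 genes, 8 matched a promoter entry by symbol, all but Tead1 and Ccn2. The first sequence is the whole window of Ccn1 at chr3:145649986-145650235 on the minus strand, whose match ends 98 bases before the start. The others are the stretches around the match, all on the minus strand, at chr14:54577798-54577869 for Ajuba, at chr3:57576019-57576068 for Wwtr1 and at chr9:8004710-8004759 for Yap1.
Ccn1: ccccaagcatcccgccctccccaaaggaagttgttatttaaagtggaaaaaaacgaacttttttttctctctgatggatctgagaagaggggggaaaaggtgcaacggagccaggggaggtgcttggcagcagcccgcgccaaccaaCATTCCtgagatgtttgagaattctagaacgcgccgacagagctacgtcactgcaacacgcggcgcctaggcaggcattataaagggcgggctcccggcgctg
Ajuba: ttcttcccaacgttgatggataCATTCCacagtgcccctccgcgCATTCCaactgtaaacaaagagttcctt
Wwtr1: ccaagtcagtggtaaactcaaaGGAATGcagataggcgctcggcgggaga
Yap1: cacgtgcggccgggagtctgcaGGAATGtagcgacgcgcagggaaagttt

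Ajuba holds the motif at 2 places, and the other 3 genes shown hold it at 1. Amotl2 also has a match, 60 bases before its RefSeq start and within the annotated span of the gene, and its sequence is not printed. In all, 5 of the 8 genes with an entry had a match, while Lats1, Lats2 and Tead2 had none in this window. On either strand, the motif occurs in 12.6% of 32536 windows of the same length over all RefSeq promoters. TGANTCA, the AP-1 motif that often accompanies TEAD sites in enhancers, was found in 0 of the 8 genes and in 6.73% of all windows. A match of a short motif is a description of the sequence and not a measured binding site.

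Lats1 and Lats2 encode the kinases that phosphorylate YAP1 and TAZ. Lats1 (ENSMUSG00000040021, chr10:7681214-7716460, plus strand, GRCm38) had normalized values of 311, 369 and 292 in tamoxifen libraries, against 370, 331 and 407 in untreated libraries. The groups overlapped, and the log2 fold change was -0.19 (SE 0.19, 95% interval -0.64 to 0.26, limma adjusted p 0.734), ranging from -0.29 to -0.12 as single libraries were left out. Lats1 rested on 16 to 46 recovered reads in a library, on average the fewest of the 10 genes. Lats2 (ENSMUSG00000021959, chr14:57689662-57758388, minus strand), which is itself a YAP target in many cells, had values of 1246, 2082 and 1421 in tamoxifen libraries, against 1042, 3348 and 1819 in untreated libraries. Untreated libraries 1 and 2 held both the lowest and the highest value of the 6. Lats2 had a log2 fold change of -0.26 (SE 0.40, 95% interval -1.20 to 0.68, limma adjusted p 0.839), which was 0.17 without untreated replicate 2. An annotated protein-coding gene on the same strand, Gm49361, shares 2955 exon bases with Lats2 and has no row of its own among the deposited values. How reads of the shared bases were counted is not given in the sources used here.

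Yap1 and Wwtr1 encode the coactivators. Yap1 (ENSMUSG00000053110, chr9:7931999-8004596, minus strand) had values of 4048, 4729 and 4311 in tamoxifen libraries, against 3854, 3523 and 3600 in untreated libraries. All 3 tamoxifen libraries lay above all 3 untreated libraries, though tamoxifen replicate 1 exceeded untreated replicate 1 only slightly. Yap1 had a log2 fold change of 0.25 (SE 0.12, 95% interval -0.03 to 0.54, limma adjusted p 0.469). On recovered reads scaled between libraries, the groups overlapped and the log2 fold change was 0.06. It was -0.06 once trends with GC content and length were removed. Wwtr1 (ENSMUSG00000027803, chr3:57455649-57575910, minus strand) had values of 1168, 857 and 896 in tamoxifen libraries, against 740, 818 and 768 in untreated libraries. Tamoxifen replicate 1 was the highest of the 6 libraries, and the groups did not overlap. For Wwtr1 the log2 fold change was 0.32 (SE 0.17, 95% interval -0.07 to 0.70, limma adjusted p 0.509), against 0.18 without tamoxifen replicate 1. On recovered reads it was 0.42, and the groups again did not overlap.

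Tead1 and Tead2 encode factors that carry YAP1 and TAZ to DNA, and Tead2 is the family member known for its expression in early mouse embryos. Tead1 (ENSMUSG00000055320, chr7:112679318-112906807, plus strand) had values of 3231, 4632 and 3718 in tamoxifen libraries, against 3786, 2102 and 3016 in untreated libraries. Tamoxifen replicate 2 was highest, untreated replicate 2 was lowest, and the groups overlapped. Tead1 had a log2 fold change of 0.40 (SE 0.24, 95% interval -0.14 to 0.95, limma adjusted p 0.544), and 0.18 without untreated replicate 2. Tead2 (ENSMUSG00000030796, chr7:45215753-45233644, plus strand) had values of 5079, 4592 and 5391 in tamoxifen libraries, against 5274, 6365 and 6207 in untreated libraries. The groups overlapped only through untreated replicate 1, which lay below tamoxifen replicate 3. For Tead2 the log2 fold change was -0.24 (SE 0.14, 95% interval -0.56 to 0.07, limma adjusted p 0.527), against -0.38 on recovered reads. Thus the fold changes of the 2 TEAD genes had opposite signs, and both intervals included 0. The difference between them was not tested.

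Amotl2 and Ajuba encode scaffold proteins on opposite sides of the pathway: angiomotin-like proteins bind YAP1 and TAZ and hold them outside the nucleus, while the LIM protein AJUBA binds LATS kinases and restrains them. Amotl2, also a YAP target (ENSMUSG00000032531, chr9:102716672-102733418, plus strand), had values of 5527, 4787 and 4691 in tamoxifen libraries, against 4612, 3066 and 3511 in untreated libraries. The groups did not overlap, and untreated replicate 1 came close to tamoxifen replicate 3. Amotl2 had a log2 fold change of 0.44 (SE 0.17, 95% interval 0.03 to 0.85), with an unadjusted limma p of 0.037 and an adjusted p of 0.38. Ajuba (ENSMUSG00000022178, chr14:54567472-54577558, minus strand) had values of 7219, 7579 and 6257 in tamoxifen libraries, against 7025, 5450 and 5136 in untreated libraries. The groups overlapped, since untreated replicate 1 exceeded tamoxifen replicate 3. For Ajuba the log2 fold change was 0.27 (SE 0.16, 95% interval -0.11 to 0.64, limma adjusted p 0.563), against -0.04 on recovered reads.

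Ccn1 and Ccn2 encode secreted matricellular proteins of the CCN family and are the targets most often used to read YAP and TAZ activity. Ccn1 (ENSMUSG00000028195, chr3:145646976-145649981, minus strand), whose promoter is printed above, had values of 6129, 5778 and 6364 in tamoxifen libraries, against 3696, 3619 and 3048 in untreated libraries. Every tamoxifen library exceeded every untreated library, and the lowest tamoxifen value was well above the highest untreated one. The log2 fold change of Ccn1 was 0.82 (SE 0.13, 95% interval 0.52 to 1.12), with an unadjusted limma p of 0.000273, rank 41 of 11843 genes, and an adjusted p of 0.0776. Leaving out 1 library at a time gave log2 fold changes of 0.73 to 0.87 and adjusted limma p of 0.116 to 0.428. The recovered reads behind Ccn1 were 206, 152 and 410 in tamoxifen libraries, against 109, 179 and 37 in untreated libraries. These raw reads overlap because the libraries differ in depth. Per kb of exon and 1000000 scaled reads, Ccn1 stood at 30.7, 25.1 and 33.2 in tamoxifen libraries, against 12.2, 16.1 and 10.1 in untreated libraries. On recovered reads the log2 fold change of Ccn1 was 1.22 (limma adjusted p 0.132), and with GC and length trends removed it was 1.30 and passed the test (limma adjusted p 0.0336).

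Ccn2 (ENSMUSG00000019997, chr10:24595442-24598683, plus strand) had values of 1974, 2908 and 2121 in tamoxifen libraries, against 1517, 1401 and 1845 in untreated libraries. The groups did not overlap, and tamoxifen replicate 2 was the highest library. The log2 fold change of Ccn2 was 0.54 (SE 0.19, 95% interval 0.11 to 0.98), with an unadjusted limma p of 0.0213 and an adjusted p of 0.321. Ccn2 rested on 71, 108 and 144 recovered reads in tamoxifen libraries, against 62, 81 and 38 in untreated libraries. An annotated gene on the opposite strand, Gm15270, shares 665 exon bases with Ccn2 and has no row among the deposited values. The strand setting of the count is not given in the sources used here.

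**Figure D2:**
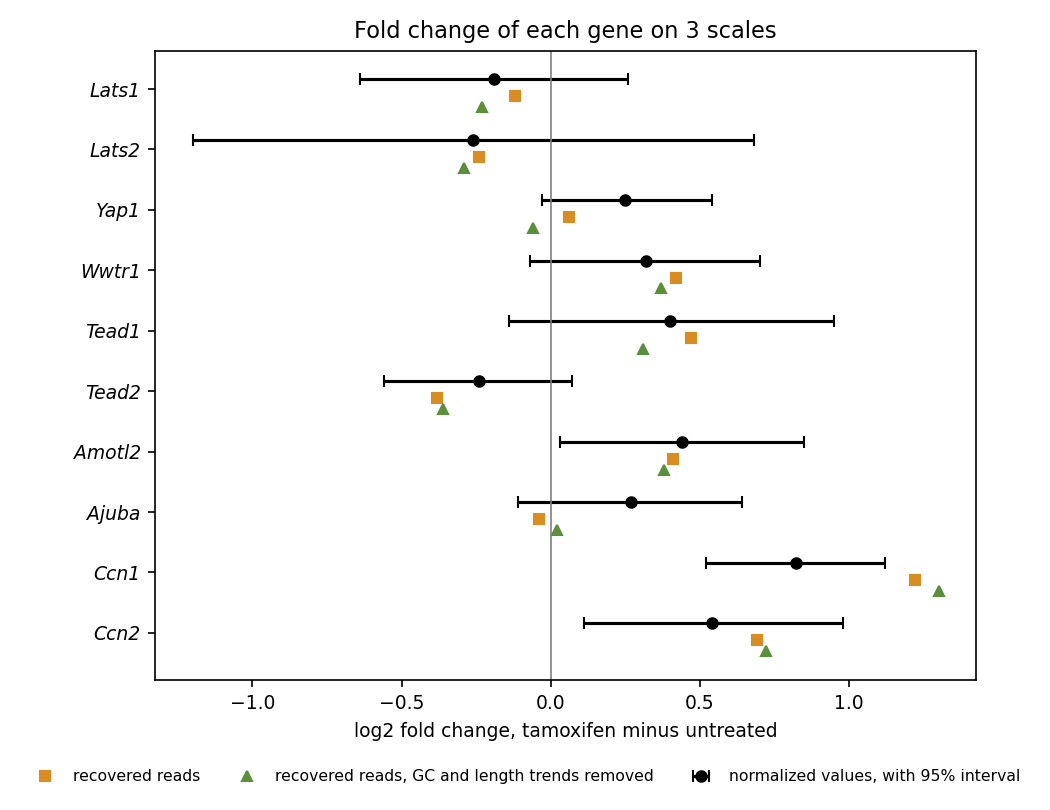
Log2 fold change (tamoxifen minus untreated) of the 10 genes computed in 3 ways: normalized values, recovered reads, and the same reads after removal of GC and length trends. Whiskers are 95% intervals of the normalized values. Ccn1 lies farthest from 0, at 0.82, 1.22 and 1.30, while Yap1 (0.25, 0.06 and -0.06) and Ajuba (0.27, -0.04 and 0.02) lie near 0 on recovered reads.

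On a scale that allows genes to be compared, reads per kb of exon and 1000000 scaled reads, the 10 genes were ordered as follows by their mean over the 6 libraries. Ajuba (24.4), Tead2 (23.2) and Ccn1 (21.2) stood highest. Yap1 (14.4) and Amotl2 (11.7) came next, then Lats2 (9.14), Tead1 (7.8), Ccn2 (7.61) and Wwtr1 (7.43). Lats1 stood last at 1.1. Neighbours in this order overlapped in their ranges over the 6 libraries, except that Lats1 lay below Wwtr1 in every library. On this scale the level of Yap1 was 14.7 ± 1.06 in tamoxifen and 14.0 ± 1.25 in untreated libraries (SD, n = 3 each), while that of Wwtr1 was 8.5 ± 0.692 in tamoxifen and 6.37 ± 1.14 in untreated libraries. Yap1 RNA thus stood above Wwtr1 RNA in both groups, and Tead2 RNA (19.9 ± 2.42 in tamoxifen, 26.4 ± 7.04 in untreated) stood above Tead1 RNA (9.04 ± 2.45 in tamoxifen, 6.56 ± 1.96 in untreated). Among the replicates of a group, Lats2 varied most in normalized value, with a coefficient of variation of 27.9% in tamoxifen and 56.7% in untreated libraries, and that of Ccn1 was 4.84% in tamoxifen and 10.2% in untreated libraries.

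**Figure D3:**
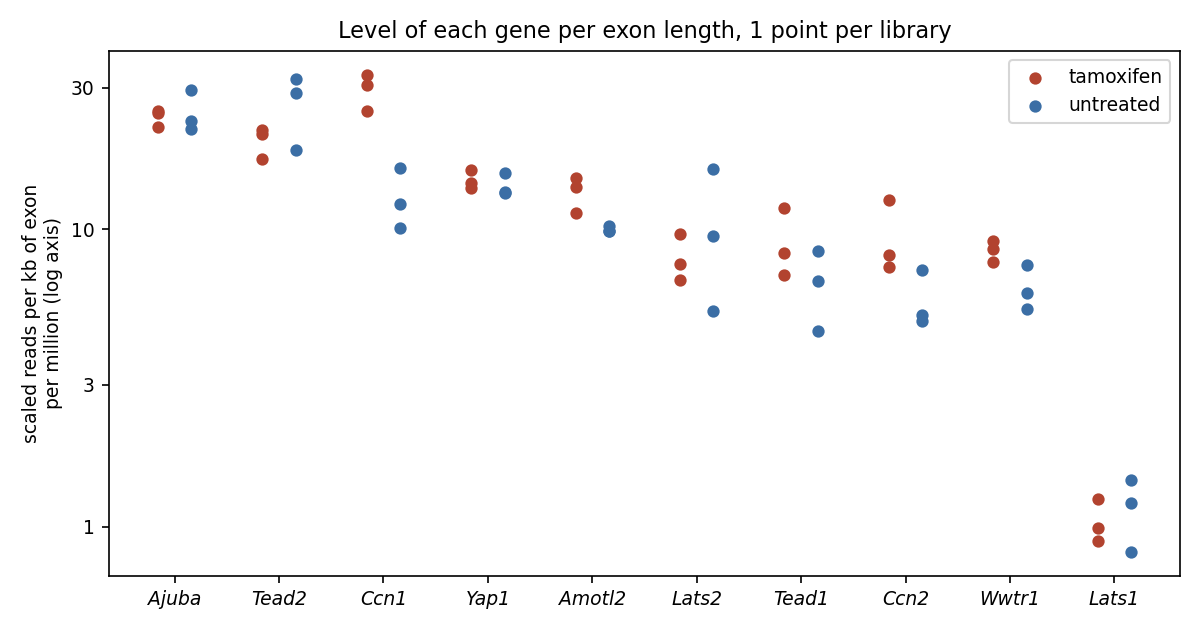
Level of the 10 genes in reads per kb of exon and 1000000 scaled reads (log axis) in the 3 tamoxifen libraries (red) and the 3 untreated libraries (blue), in order of mean level. Ajuba, Tead2 and Ccn1 head the order, at means of 24.4, 23.2 and 21.2 over the 6 libraries, and Lats1 lies last at 1.1.

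Single libraries carried several of the extremes. Tamoxifen replicate 2 had the highest value of the 6 libraries for Yap1, Tead1, Ajuba and Ccn2 and the lowest for Tead2. Untreated replicate 2 had the lowest value for Yap1, Tead1, Amotl2 and Ccn2 and the highest for Lats2 and Tead2. The extremes of Ccn1 lay in tamoxifen replicate 3, the highest, and untreated replicate 3, the lowest.

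A wider list of 63 other pathway genes covers the other steps of the pathway. Of these, 62 had a row and were looked up, and 54 had enough reads to be tested, all but Fat4, Dchs1, Vgll1, Vgll2, Ankrd1, Ccdc80, Foxf2 and Tgfb2. None was called: 0 of 54 had an adjusted limma p under 0.05, against 0.127% of all tested genes. Of the 54, 43 had a log2 fold change above 0, which is 79.6%, against 48.3% of all tested genes. The median was 0.23 over the 54 genes and -0.01 over all tested genes. At an unadjusted limma p under 0.05 stood 14 of the 54, 12 above 0 and 2 below, against 12% of all tested genes. On recovered reads 41 of the 54 were above 0 with a median of 0.27, and 0 were called. Over all tested genes, 48% were above 0 on that scale with a median of -0.02, and 5 were called. With GC and length trends removed the median was 0.14, and 1 gene, Ptpn14, was called. Over the 11495 genes tested that way the median was -0.05, and 23 were called.

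The target list had the most genes on one side, with 13 of its 14 tested genes above 0 and a median of 0.36. Ptpn14, a phosphatase gene that is a YAP target and whose protein binds YAP1, had values of 4671, 4097 and 4360 in tamoxifen libraries, against 1752, 1353 and 2130 in untreated libraries. Every tamoxifen value was well above every untreated value. The log2 fold change of Ptpn14 was 1.35 (SE 0.18), rank 19 by p, with an adjusted limma p of 0.0547. Recovered reads gave 1.30 (limma adjusted p 0.104), and removal of GC and length trends gave 1.16, which passed the test (limma adjusted p 0.0365). Leaving out 1 library at a time gave 1.18 or more, with adjusted limma p of 0.108 to 0.42. F3, the tissue factor gene, had values of 321, 428 and 282 in tamoxifen libraries, against 234, 253 and 173 in untreated libraries, a log2 fold change of 0.64 (SE 0.25, limma adjusted p 0.38). Nuak2, an AMPK-related kinase gene, was at 797, 914 and 1100 in tamoxifen libraries, against 622, 662 and 777 in untreated libraries, a log2 fold change of 0.44 (SE 0.18, limma adjusted p 0.388). Groups did not overlap in normalized value for either gene, but on recovered reads scaled between libraries those of Nuak2 did. Too few reads were recovered to test the target Ankrd1, which had 2, 5 and 8 reads in tamoxifen libraries, against 2, 6 and 1 in untreated libraries. The same holds for Foxf2, with 1, 2 and 2 reads in tamoxifen libraries, against 0 in every untreated library, and it was called in the 2 alternatives with a looser filter on low genes.

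Of the TEAD and VGLL genes, Tead4, the trophectoderm factor, had values of 516, 535 and 799 in tamoxifen libraries, against 429, 438 and 389 in untreated libraries. Its groups did not overlap, at a log2 fold change of 0.53 (SE 0.21, limma adjusted p 0.384), against 0.33 without tamoxifen replicate 3, its highest library. Vgll4, whose protein competes with YAP1 for TEAD, had a log2 fold change of 0.49 (SE 0.27, limma adjusted p 0.515). Tead3 was high in 1 library of each group, at 582, 464 and 2209 in tamoxifen libraries, against 524, 3445 and 435 in untreated libraries. Its log2 fold change was -0.13 (SE 0.86), ranging from -0.83 to 0.82 as single libraries were left out.

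In the list of adaptors and the STRIPAK phosphatase complex, 8 of 10 tested genes were above 0, with a median of 0.11. Both angiomotin relatives of Amotl2 were among the genes named. Amot had values of 526, 468 and 478 in tamoxifen libraries, against 224, 312 and 48.7 in untreated libraries. Amot had a log2 fold change of 1.69 (SE 0.62, limma adjusted p 0.348), but 0.89 without untreated replicate 3, where it rested on 5 recovered reads. Amotl1 had values of 1129, 876 and 1091 in tamoxifen libraries, against 808, 536 and 817 in untreated libraries, a log2 fold change of 0.54 (SE 0.21, limma adjusted p 0.379). For Amotl1 it was 0.34 without untreated replicate 2 and 0.35 after removal of GC and length trends. The STRIPAK gene Slmap had a log2 fold change of 0.51 (SE 0.19, limma adjusted p 0.353).

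Of the genes upstream of the kinases, 10 of 12 were above 0, with a median of 0.27. Frmd6, a FERM-domain gene related to an upstream Hippo regulator of the fly, had values of 390, 312 and 351 in tamoxifen libraries, against 166, 234 and 214 in untreated libraries, without overlap. Its log2 fold change was 0.78 (SE 0.22, limma adjusted p 0.244). The giant cadherin gene Fat1 had values of 8194, 14791 and 8438 in tamoxifen libraries, against 7571, 4477 and 6071 in untreated libraries. Fat1 had a log2 fold change of 0.77 (SE 0.28, limma adjusted p 0.347), against 0.49 without tamoxifen replicate 2, its highest library. Dlg5, a polarity gene, had a log2 fold change of 0.41 (SE 0.15, limma adjusted p 0.36).

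In the kinase core, 8 of 11 genes were above 0, with a median of 0.16. Mob1a, the cofactor gene of the LATS kinases, had values of 4311, 4573 and 4146 in tamoxifen libraries, against 3601, 3183 and 3035 in untreated libraries, without overlap. Its log2 fold change was 0.41 (SE 0.13, limma adjusted p 0.269). On recovered reads scaled between libraries the groups of Mob1a overlapped, and its log2 fold change was 0.27, or 0.21 after removal of GC and length trends. Stk38, a kinase gene related to LATS, lay the other way, at 808, 1032 and 1246 in tamoxifen libraries, against 1771, 1324 and 1722 in untreated libraries. Its log2 fold change was -0.65 (SE 0.20, limma adjusted p 0.271). Map4k4, a kinase gene that acts beside the MST kinases, had a log2 fold change of 0.27 (SE 0.13, limma adjusted p 0.458).

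The turnover list, which holds 4 tested genes, was split, with 2 above and 2 below 0. Csnk1d, a casein kinase gene that primes phosphorylated YAP1 for ubiquitination, had values of 3231, 3338 and 3153 in tamoxifen libraries, against 2491, 2628 and 2782 in untreated libraries. Its log2 fold change was 0.30 (SE 0.12, limma adjusted p 0.366). Btrc, a ubiquitin ligase subunit gene, had values of 1888, 1557 and 2073 in tamoxifen libraries, against 2122, 3075 and 2413 in untreated libraries, a log2 fold change of -0.46 (SE 0.18, limma adjusted p 0.384). Neither pair of groups overlapped in normalized value, but both did on recovered reads, where the log2 fold change was 0.14 for Csnk1d and -0.23 for Btrc. Fbxw11, its paralogue, was near 0, at a log2 fold change of -0.05 (SE 0.17, limma adjusted p 0.94).

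**Figure D4:**
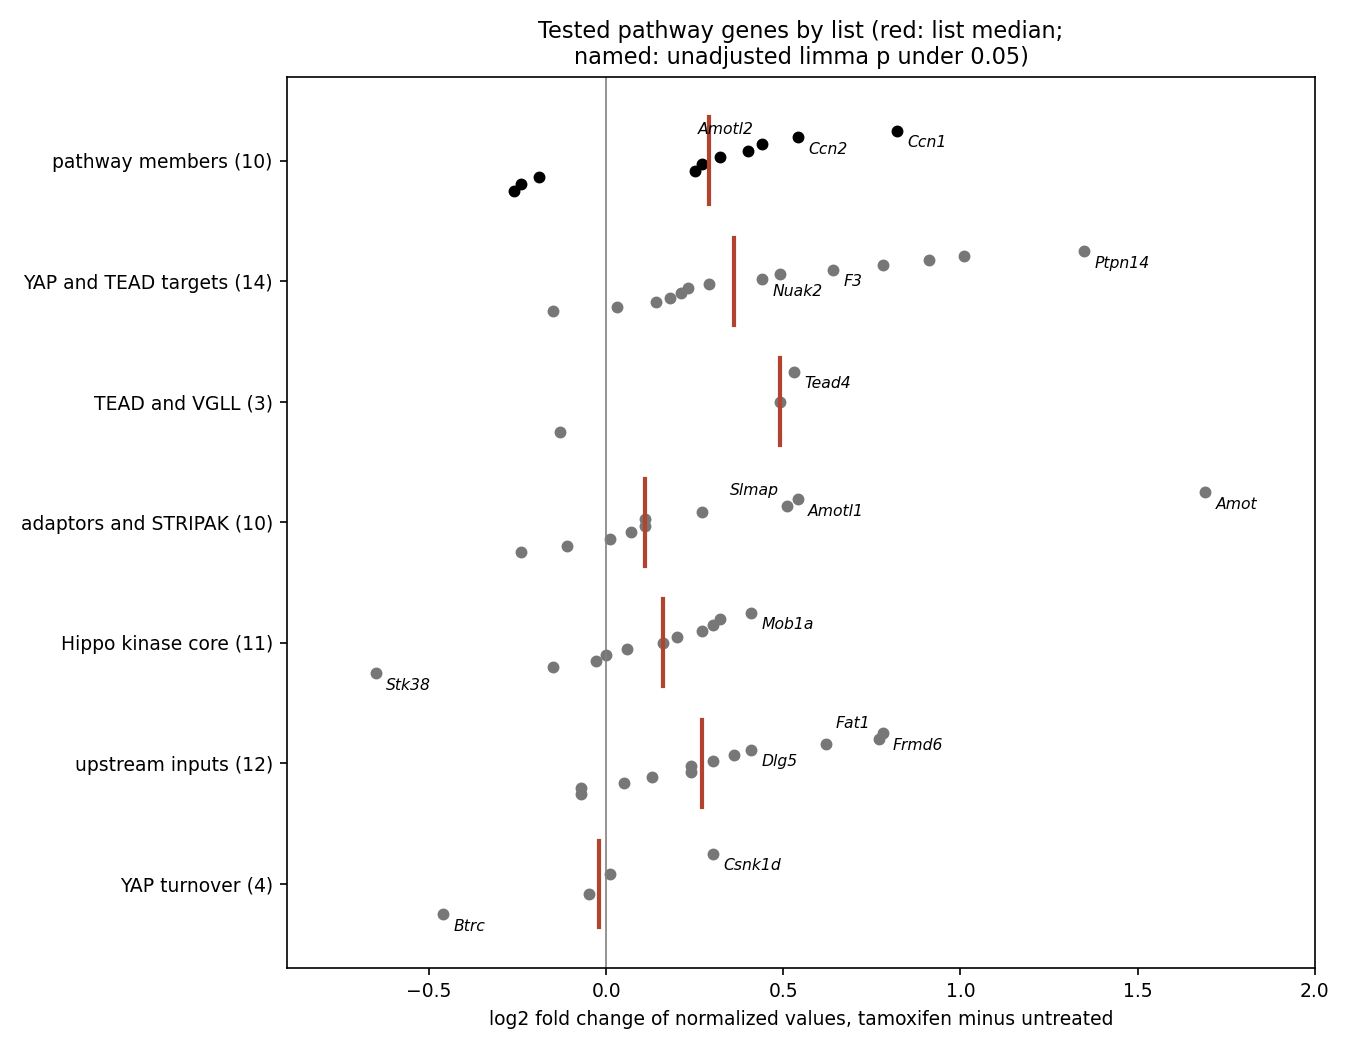
Log2 fold change of normalized values (tamoxifen minus untreated) of every tested pathway gene by list, with the list median in red; names mark an unadjusted limma p under 0.05. The 10 members have a median of 0.29, and 13 of 14 YAP and TEAD targets lie right of 0, with Ptpn14 (1.35) as the highest target.

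Markers of other cell types were measured beside these genes. The 12 primitive endoderm markers summed to normalized values of 31911, 35215 and 39046 in tamoxifen libraries, against 19112, 19250 and 16632 in untreated libraries. Of the 12, 10 were higher in each tamoxifen library than in any untreated one. Among the 10 with enough reads to be tested, 9 were, against 9.49% of all tested genes. Lama1, Sparc and Col4a1 had the highest values of the 12 in every library. All 10 tested markers had log2 fold changes above 0, with a median of 1.27, and 0 were called. With GC and length trends removed 2 were called, Col4a1 and Col4a2 (limma adjusted p 0.0455 and 0.0398), against 23 of all 11495 genes tested that way. The 12 trophoblast markers summed to 14416, 12425 and 12881 in tamoxifen libraries, against 7104, 8769 and 7291 in untreated libraries. Tfap2c, Krt8 and Krt18 had the highest values of the 12 in every library, and the groups of Tfap2c overlapped. Of the 12, 5 (Hand1, Ascl2, Krt7, Krt8 and Krt18) were higher in each tamoxifen library than in any untreated one. This held for 3 of the 5 with enough reads to be tested, against 9.49% of all tested genes. On recovered reads scaled between libraries, Ascl2 and Krt8 overlapped. Cdx2, Eomes, Elf5, Gcm1 and Plac1 overlapped in normalized value. All 5 trophoblast markers with enough reads to be tested had log2 fold changes above 0, with a median of 0.75, and 0 were called. Hand1 had 6, 8 and 10 reads in tamoxifen libraries, against 0, 1 and 0 in untreated libraries. Cdx2 had 1, 1 and 3 reads in tamoxifen libraries, against 2, 1 and 0 in untreated libraries, and Tpbpa was at 0 in every library. Both sums, like Ccn1, Ccn2, Amotl2, Wwtr1 and Yap1, were higher in normalized value in each tamoxifen library than in any untreated one. On 1000000 scaled reads this held for both sums and for these genes except Yap1. The trophoblast sums came close there, at 119 in tamoxifen replicate 2 against 112 in untreated replicate 2. The part of both marker sets in the fold changes of the pathway genes was not tested. In bulk RNA of this kind, fewer cells of a type and less RNA per cell cannot be told apart. The 14 fibroblast and feeder markers summed to 3041, 5181 and 4071 in tamoxifen libraries, against 2784, 4030 and 3494 in untreated libraries, which overlapped. All 5 of these markers with enough reads to be tested had log2 fold changes above 0, with a median of 0.60, and 0 were called. Of the 14, Postn alone did not overlap, with 1, 2 and 2 reads in tamoxifen libraries, against 0 in every untreated library, and Lum alone was at 0 reads in every library. The part of these markers in the fold changes of the pathway genes was not tested either. The 10 pluripotency markers that define the labelled cell type were all detected in all 6 libraries, with sums of 83719 to 88956 in tamoxifen and 74554 to 108307 in untreated libraries. In normalized value these sums overlapped. On 1000000 scaled reads the sums were 1696, 1523 and 1656 in tamoxifen libraries, against 1721, 1761 and 1722 in untreated libraries, and did not overlap. Single markers went both ways. Nanog and Tfcp2l1 were higher in each tamoxifen library than in any untreated one on both scales. Zfp42 was lower on both scales, and Dppa5a and Fgf4 were lower on scaled reads only. The median log2 fold change of the 10 was -0.02, with 4 above 0 and 6 below, and 0 were called.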

How the data were processed

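Total RNA of 6 libraries, 3 tamoxifen and 3 untreated, was depleted of ribosomal RNA and sequenced as directional libraries, per the labels' protocols. The deposited table holds a normalized signal per Ensembl gene. The submitters' processing notes name TopHat2, bedtools, DESeq2 and mm9 without versions, and the annotation, strand setting and counting rule are not given in the sources used here. Each deposited value equals 9.73 × k × (m + 0.1) / (k + 0.1) for whole numbers k and m, with a largest relative misfit of 5.11e-15, and k was taken as the reads of the gene. Exactly 1 solution existed for 98.8% of the 100305 values above 0. Between libraries the sorted values of m differed by at most 4, so the deposited values have nearly the same distribution in each library, which levels differences in overall distribution. This differs from the single scaling factor assumed in the plan, and the planned limma test was kept.

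Log2(value + 1) was compared with limma 3.58.1 (R 4.3.3, variance trend) for genes with at least 10 recovered reads on average. The fit was also run on simulated reads with planted changes and the same assumed spread for every gene. Its outcome is not reported here, and genes that vary more were not covered. Symbols and coordinates came from GENCODE vM21 on GRCm38, for 20273 genes. Levels used reads scaled by the median of ratios, per kb of merged exons. Python 3.11.15, numpy 2.4.6, pandas 2.3.3 and matplotlib 3.10.9 did the rest. Alternatives were a pseudocount of 10, other filters, median-of-ratios and quantile scaling, recovered reads with and without removal of GC and length trends (loess span 0.5), no variance trend, a replicate block and leaving out each library. The text names all 10 genes and, from each other list, the 3 tested genes of smallest p, with a few low-read genes, Ezh2 and single cell type markers beside them. The 10 genes and the lists were chosen with earlier results of these data known.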

Additional observations from a re-analysis of the deposited data

How the results depend on the processing

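Against 15 called genes of all tested, a pseudocount of 10 gave 5, a mean value of at least 10 gave 34, no filter gave 52, recovered reads gave 5, GC and length removal gave 23, no variance trend gave 3, and leaving out single libraries gave 0 to 1. With the replicate number as a block, 0 genes were called. Correlations of same-numbered libraries were -0.007, -0.049 and 0.005, and those of differently numbered libraries lay between -0.082 and 0.086. No shared deviation of same-numbered libraries was seen, but this cannot show whether they were prepared as pairs. Of the other pathway genes, 1 was called under the looser filter on the mean value, 1 with no filter (Foxf2 in both) and 1 with GC and length removal, against 0. Removing GC and length trends also called 1 of the 10 genes, Ccn1, and put their median at 0.16, against -0.05 over all genes tested that way. Over 28 genes named and 15 settings, 408 of 420 values kept their direction and their side of the threshold, 10 were reversed, and 2, Ccn1 (1.30) and Ptpn14 (1.16) with GC and length removal, newly passed it. Of the 10 genes, 7 kept their direction in all 15 settings. The other filters, the fit without variance trend and the replicate block leave every fold change as it was. Direction could therefore not reverse in those settings, and only the side of the threshold could change. On recovered reads Ajuba came to -0.04 and Fbxw11 to 0.06. With GC and length removal Yap1 came to -0.06 and Fbxw11 to 0.05. Leaving out single libraries gave -0.68 to 0.17 for Lats2, -0.83 to 0.82 for Tead3 and -0.18 to 0.07 for Fbxw11. Where no construction shows it, the cause was not tested. Depth limits the genes with few reads in a library, such as Amot (5 reads), F3 (6 reads) and Lats1 (16 reads) at their lowest, and the genes too low to be tested.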

Other observations

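Tead3 was high in tamoxifen replicate 3 (175 recovered reads, against 20 and 11 in the other tamoxifen libraries) and in untreated replicate 2 (382 reads, against 20 and 10 in the other untreated libraries). Of the 11843 tested genes, 30 had both of these libraries at 3 or more times every other library in normalized value, a pattern chosen after the values of Tead3 were seen. These are the libraries with the most recovered reads of their groups, at 5110226 and 5689666. No other TEAD gene had this pattern.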
